A study of Mus musculus with 6 samples.

Results

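The collagen gene family was defined as all genes whose symbol has the form Col, number, a, number, and its members were found through the RefSeq identifier that the array design gives to each probe. It comprised 43 of the 18749 genes with a named probe and 74 of 41174 probes. Of the 44 mouse symbols of this form in the RefSeq table, Col12a1 had no named probe and was not analysed here. The cells came from embryonic stem cells of 129/Ola mice, were differentiated in the serum-free medium N2B27 and are labelled as day 3 cells. TSA samples (n = 3) had received trichostatin A, an inhibitor of histone deacetylases whose dose the labels do not give, for 24 h, and DMSO samples (n = 3) the solvent alone for 24 h. The samples of a treatment came from 3 independent experiments. Each of 3 slides carried a 1-colour Agilent array of a TSA and of a DMSO sample with the same replicate number, with TSA always at the same position on the slide and DMSO at another, so that treatment cannot be told apart from position. No cell type is labelled beyond differentiated cells, and 3 marker lists for cells that make collagen are given beside the results they touch.

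Collagens are secreted or membrane-anchored proteins in which several chains wind into a triple helix. The fibrillar types I, II, III, V, XI, XXIV and XXVII build or regulate the fibrils of connective tissue, and type IV forms the network of basement membranes. The remaining types decorate fibrils, form fine filaments and networks, or span the cell membrane. In the early embryo, basement membranes containing type IV collagen appear before interstitial fibrils, and type I collagen becomes abundant in mesenchyme.

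Levels are log2 signals relative to the 75th percentile of the array, so that 0 stands for that percentile. Differences are log2 values, TSA minus DMSO, given with the moderated standard error of limma. Unless stated otherwise, errors and intervals come from a fit without the slide and so include differences between slides. Because a probe's brightness also depends on its sequence, levels of different genes were not set against each other. The 75th percentile was 670, 311 and 885 intensity units on TSA arrays 1, 2 and 3, and 632, 654 and 926 on DMSO arrays 1, 2 and 3. TSA replicate 2 was the dimmest array. It correlated with TSA replicates 1 and 3 at 0.931 and 0.939, while the remaining pairs of arrays within a treatment reached 0.984 to 0.990. The median spike-in control lay 3.32 log2 units above the 75th percentile on TSA replicate 2, and 1.25 to 1.90 above on the other arrays.

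Detection sets what can be said of each member. A probe was tested if it lay well above background on 3 or more arrays, whatever the treatment, and each gene was represented by its brightest tested probe. On this rule 34 of the 43 collagen genes were tested, and 29 genes were detected by some probe on all 6 arrays. The untested members were Col4a3, Col6a3, Col6a6, Col9a1, Col10a1, Col15a1, Col17a1, Col19a1 and Col28a1. Of these, Col4a3, Col6a6, Col10a1, Col19a1 and Col28a1 were above background on 0 arrays. Col17a1, a transmembrane collagen of epithelial anchoring junctions, was detected on 2 TSA arrays and 0 DMSO arrays. Its brighter probe had levels of -4.28, -5.61 and -5.37 in TSA, against -7.05, -7.16 and -6.70 in DMSO, without overlap. As 0 DMSO arrays were above background, the size of that difference is not known. Col9a1 was detected on 0 TSA arrays and 2 DMSO arrays. The Col9a1 levels overlapped, at -5.61, -5.17 and -6.30 in TSA, against -5.83, -5.32 and -5.56 in DMSO, so its detection does not show a fall. The lowest level well above background was -4.86 on TSA array 2 and -6.00 on DMSO array 2. Between 31 and 35 collagen genes were detected on a TSA array and between 30 and 37 on a DMSO array.

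Single collagen genes rose in TSA and none fell. Col5a3, Col6a4 and Col8a2 passed (limma, Benjamini-Hochberg over all 28160 tested probes, threshold 0.05), that is 3 of 34 tested members. Over all 14527 tested genes, 1.36% were called higher in TSA and 0.0551% lower. In a second fit with the slide as a blocking term, called the blocked fit below, 4 members rose and 0 fell, against 3.19% and 0.145% of all tested genes. The member added was Col1a2. At an unadjusted p under 0.05, 15 members (44.1%) were higher in TSA and 0 lower, against 12.1% and 2.78% of all tested genes, so higher genes outnumbered lower ones on the arrays in general.

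Every TSA array lay above every DMSO array for 15 tested members (44.1%), against 16.4% of all tested genes. The opposite order held for 1 member, Col18a1, against 8.29% of all tested genes. The median difference was 0.88 over the tested members and 0.085 over all tested genes. Of the tested members, 27 had a higher and 7 a lower mean in TSA, against 8443 and 6084 of all 14527 tested genes. With DMSO replicate 1, 2 or 3 or TSA replicate 1 or 3 left out, 0 collagen genes and 0 of all probes passed. Without TSA replicate 2 the members that passed numbered 5 (Col5a3, Col6a4, Col8a2, Col11a1 and Col24a1), beside 629 of all 28160 tested probes. Col24a1 was above background on only 2 TSA arrays and 1 DMSO array. With both arrays of slide 2 left out, 0 members and 0 probes passed.

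**Figure D1:**
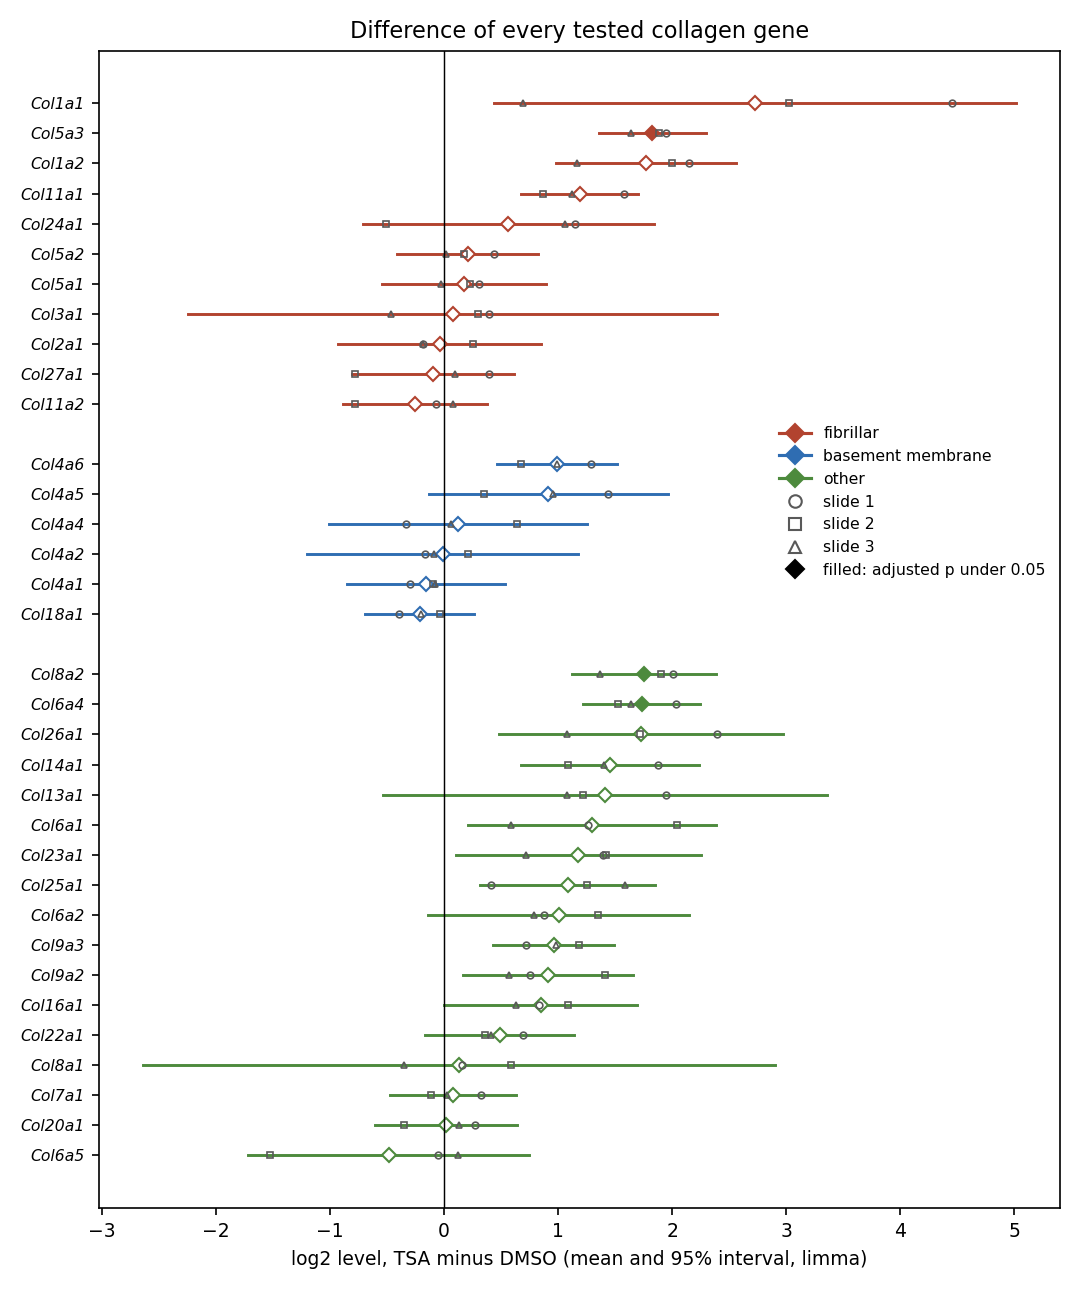
Difference of each of the 34 tested collagen genes, TSA minus DMSO in log2 units, with genes down the page by class. Large symbols are means with 95% intervals from limma (n = 3 per treatment), filled where the adjusted p is under 0.05, and small symbols are the differences within each slide. Col5a3, Col6a4 and Col8a2 are filled, and 27 of the 34 means lie above 0.

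The classes lay at different distances from 0. All 11 fibrillar genes were tested, of which 1 rose and 0 fell, with 8 means above 0 and a median difference of 0.21. Of 8 basement membrane genes (types IV, XV and XVIII) 6 were tested and 0 rose or fell, with 3 means above 0 and a median of 0.055. In the remaining class 17 of 24 genes were tested, 2 rose and 0 fell, 16 means lay above 0, and the median was 1.00. On slides 1, 2 and 3 the median was 0.83, 1.22 and 0.72 for this remaining class, 0.43, 0.26 and 0.10 for fibrillar genes, and -0.23, 0.28 and -0.011 for basement membrane genes. Over all tested genes it was -0.028, 0.30 and 0.027. Of their 14527 means 8443 lay above 0, and 1.36% were called higher in TSA. The classes were not tested against each other, since the genes of a class are not replicates. With normexp background correction the median of the remaining class was 0.33. Without DMSO replicate 3 the fibrillar median was 0.61, and the basement membrane median was -0.30 without TSA replicate 2, 0.35 without TSA replicate 1 and 0.36 without DMSO replicate 2.

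**Figure D2:**
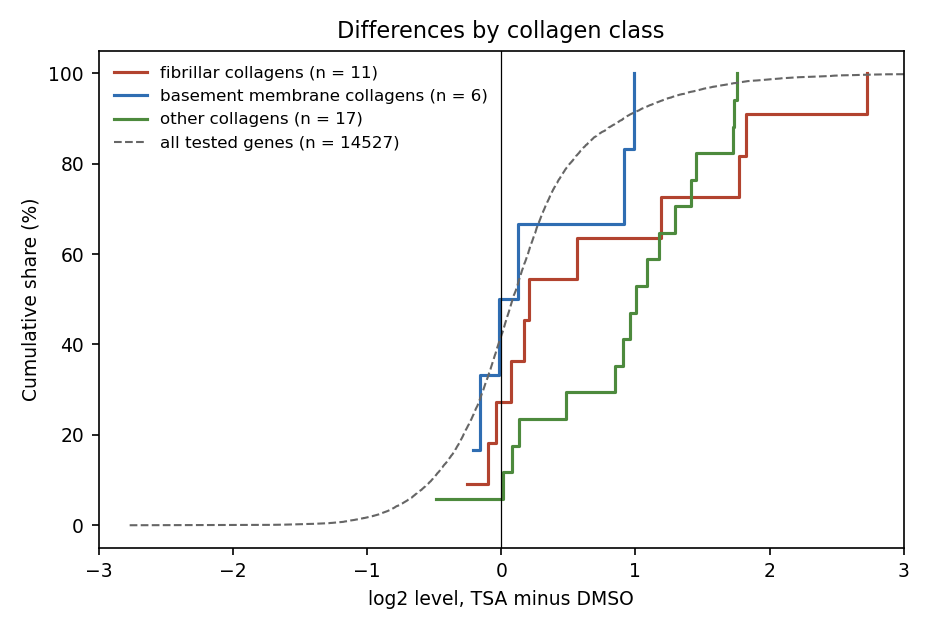
Cumulative share of genes, in percent, against the difference TSA minus DMSO in log2 units for the tested fibrillar (n = 11), basement membrane (n = 6) and other (n = 17) collagens, with all 14527 tested genes as a dashed line. The curve of the other class has its median at 1.00 and the dashed line at 0.085.

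The start regions printed here belong to the genes that rose in either fit and to the Col4a1 and Col4a2 pair, which did not pass and whose start regions overlap. Windows of 300 bases, from 250 before to 50 after the start site, come from RefSeq on build GRCm38.p6 and were matched for 35 of the 43 members. Capitals mark matches on either strand to a GC box (GGGCGG or CCGCCC), the element bound by Sp1-type factors, to a CCAAT box (CCAAT or ATTGG) or to a TATA box (TATAAA or TTTATA), and matches may overlap. Col5a3 lies at chr9:20815018-20815317 on the minus strand, Col6a4 at chr9:106096642-106096941 on the minus strand, and Col8a2 at chr4:126286544-126286843 on the plus strand. Col1a2 lies at chr6:4505368-4505667 on the plus strand. The windows of Col4a1, chr8:11312777-11313076 on the minus strand, and Col4a2, chr8:11312555-11312854 on the plus strand, share 78 bases.
Col5a3: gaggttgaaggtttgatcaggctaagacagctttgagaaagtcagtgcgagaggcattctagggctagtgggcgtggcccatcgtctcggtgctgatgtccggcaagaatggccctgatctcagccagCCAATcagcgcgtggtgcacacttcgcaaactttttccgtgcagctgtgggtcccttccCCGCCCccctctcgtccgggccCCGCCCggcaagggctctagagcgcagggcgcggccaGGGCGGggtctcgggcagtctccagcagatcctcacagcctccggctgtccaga
Col6a4: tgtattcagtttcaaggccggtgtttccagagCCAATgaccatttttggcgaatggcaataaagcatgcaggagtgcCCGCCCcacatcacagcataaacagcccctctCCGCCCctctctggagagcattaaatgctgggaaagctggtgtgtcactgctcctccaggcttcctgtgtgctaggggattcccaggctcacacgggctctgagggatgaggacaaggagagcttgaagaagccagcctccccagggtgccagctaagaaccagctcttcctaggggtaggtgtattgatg
Col8a2: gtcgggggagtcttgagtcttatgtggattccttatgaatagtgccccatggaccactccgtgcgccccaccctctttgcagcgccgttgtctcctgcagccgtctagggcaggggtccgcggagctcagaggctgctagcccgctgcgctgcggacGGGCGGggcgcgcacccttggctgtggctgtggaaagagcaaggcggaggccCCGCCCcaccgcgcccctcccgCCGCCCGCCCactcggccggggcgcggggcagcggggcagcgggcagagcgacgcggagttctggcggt
Col1a2: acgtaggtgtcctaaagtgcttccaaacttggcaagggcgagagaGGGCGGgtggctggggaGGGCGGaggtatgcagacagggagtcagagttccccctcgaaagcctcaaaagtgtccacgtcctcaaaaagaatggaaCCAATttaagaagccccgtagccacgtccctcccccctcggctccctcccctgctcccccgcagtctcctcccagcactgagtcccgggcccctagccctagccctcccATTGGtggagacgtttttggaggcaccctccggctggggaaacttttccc
Col4a1: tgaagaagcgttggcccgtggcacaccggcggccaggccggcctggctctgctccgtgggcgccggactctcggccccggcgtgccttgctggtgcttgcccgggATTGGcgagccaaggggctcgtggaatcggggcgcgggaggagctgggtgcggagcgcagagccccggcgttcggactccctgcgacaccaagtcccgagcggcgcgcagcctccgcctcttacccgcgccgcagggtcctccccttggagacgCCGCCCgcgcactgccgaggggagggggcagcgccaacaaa
Col4a2: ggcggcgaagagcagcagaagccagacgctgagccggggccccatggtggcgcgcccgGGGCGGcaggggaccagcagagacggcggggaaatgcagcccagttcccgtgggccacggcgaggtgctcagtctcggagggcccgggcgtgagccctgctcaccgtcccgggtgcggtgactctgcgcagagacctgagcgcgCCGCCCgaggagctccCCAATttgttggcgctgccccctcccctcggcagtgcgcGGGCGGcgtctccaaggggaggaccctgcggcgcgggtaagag

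Every one of these 6 windows held the GC box, with 3 in Col5a3, 2 in Col6a4, 4 in Col8a2, 2 in Col1a2, 1 in Col4a1 and 3 in Col4a2, in genes that rose and in the pair that did not pass alike. A CCAAT box was found in all of them but Col8a2, and a TATA box in 0. Over all members, 60.5% of 38 windows (35 genes) held a GC box, against 35.7% of the 32851 windows of mouse genes in the same table. For the CCAAT box the shares were 34.2% of collagen windows and 37.4% of all windows, and for the TATA box 13.2% and 13.6%. The median GC content was 59.8% in collagen windows and 52.7% in all windows. A match describes letters and does not show binding.

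Type I collagen, the main fibril protein of skin, bone and tendon, is assembled from the chains of Col1a1 and Col1a2. Col1a2 had levels of 1.39, 1.69 and 1.6 in TSA, against -0.75, -0.31 and 0.44 in DMSO. All TSA arrays lay above all DMSO arrays, and the TSA arrays were closer together. The difference was 1.77 ± 0.33 (3.41-fold, adjusted p = 0.0742), and Col1a2 rose in the blocked fit (adjusted p = 0.0474). In the limma fit that averaged the probes of each gene, its 1 tested probe gave the same difference and passed (adjusted p = 0.0390). That fit adjusted over 14527 genes and not 28160 probes.

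Col1a1 had levels of -0.33, -0.38 and 0.018 in TSA, against -4.78, -3.40 and -0.68 in DMSO. The TSA arrays lay close together and above every DMSO array, and DMSO replicate 3 was far above the other DMSO arrays. The difference of 2.73 ± 0.96 (adjusted p = 0.315, and 0.135 in the blocked fit) exceeded that of every other tested member but did not pass. On slides 1, 2 and 3 it was 4.46, 3.02 and 0.69. The other tested probes of Col1a1 gave 2.48 and 1.62 and did not pass.

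Col3a1, whose product shares fibrils with type I collagen in extensible tissues such as skin and vessels, had levels of -4.32, -3.69 and -1.90 in TSA, against -4.71, -3.99 and -1.43 in DMSO. Slide 3 was the highest under both treatments, and the treatments overlapped. The difference was 0.074 ± 0.97 (adjusted p = 0.980, 95% interval -2.25 to 2.40), and 0.074 ± 0.24 in the blocked fit (adjusted p = 0.877). On slides 1, 2 and 3 it was 0.39, 0.30 and -0.47. Its sign turned with the authors' table, median centring, quantile normalization and normexp.

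Single arrays stood apart for some members, most often on slide 2. TSA replicate 2 exceeded the mean of the other TSA arrays by over 1 for 7 members (Col2a1, Col4a2, Col4a4, Col6a2, Col13a1, Col23a1 and Col26a1), and DMSO replicate 2 the mean of the other DMSO arrays for 4 (Col4a2, Col6a5, Col13a1 and Col26a1). On TSA replicate 1 and on DMSO replicate 1, 5 members each lay more than 1 below the other arrays of the treatment. DMSO replicate 3 exceeded the mean of the other DMSO arrays by 3.42 for Col1a1, 2.92 for Col3a1, 1.10 for Col6a1 and 3.34 for Col8a1, the members over 1, against a median of -0.036 over all tested probes. TSA replicate 3 exceeded the other TSA arrays by 2.10 for Col3a1 and 2.62 for Col8a1, the members over 1. For Col1a1 that excess was 0.37.

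Of 16 markers of mesenchyme and fibroblasts, the main sources of types I and III collagen, 14 were tested. Against 1.36% of all tested genes called higher in TSA and 0.0551% lower, 0 of these markers were called. Their summed level on a linear scale, in units of the 75th percentile, was 38.4, 105 and 50.6 on TSA arrays 1, 2 and 3 and 36.9, 52.2 and 45.8 on DMSO arrays 1, 2 and 3, so that TSA replicate 2 alone lay above the DMSO range. Lum and Fap were above background on 0 arrays. The list had 10 higher and 4 lower means in TSA and a median difference of 0.31. Pdgfrb, for a growth factor receptor of mesenchyme, gave 1.38 ± 0.48 (adjusted p = 0.309) and Twist2, for a mesenchymal transcription factor, 1.24 ± 0.32 (adjusted p = 0.157), both with every TSA array above every DMSO array. Dcn, for the collagen-binding proteoglycan decorin, gave -0.91 ± 0.24 (adjusted p = 0.177) with every TSA array below every DMSO array. Thy1 gave 0.88 ± 0.34 (adjusted p = 0.377) and Pdgfra 1.44 ± 0.64 (adjusted p = 0.463). The median marker on DMSO replicate 3 deviated from the other DMSO arrays by 0.24, and on TSA replicate 3 from the other TSA arrays by -0.041. The part of such cells in the collagen values was not tested, and in bulk RNA more cells of a type and more RNA per cell cannot be told apart.

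**Figure D3:**
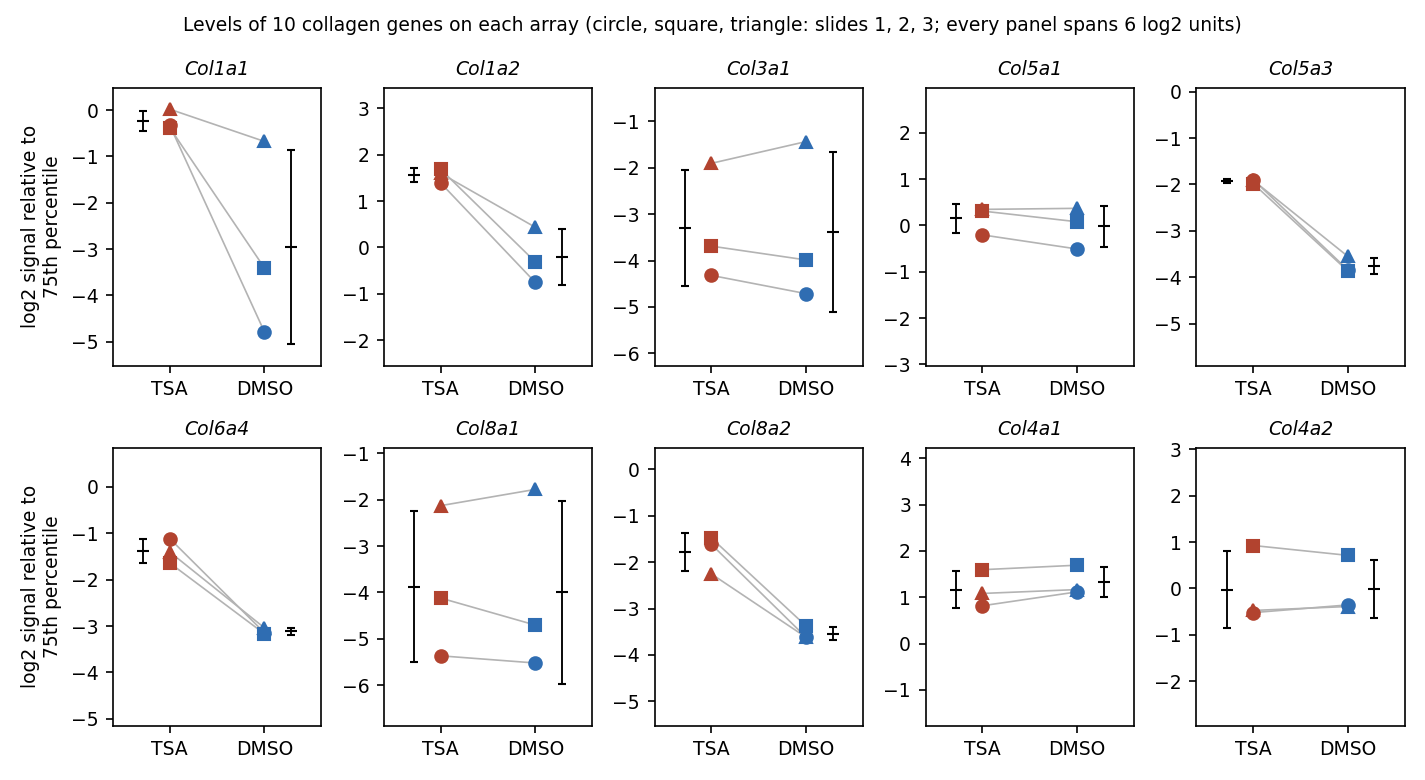
Log2 signal relative to the 75th percentile of the array for 10 collagen genes, TSA left and DMSO right in each panel. Symbols are single arrays, lines join the arrays of a slide, and bars beside them are means with SD (n = 3 per treatment). All TSA arrays lie above all DMSO arrays for Col1a1, Col1a2, Col5a3, Col6a4 and Col8a2, while slide 3 stands above the others under both treatments for Col3a1 and Col8a1.

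Type V collagen regulates the diameter of type I fibrils, and its chains come from Col5a1, Col5a2 and Col5a3. Col5a3 had levels of -1.90, -1.98 and -1.91 in TSA, against -3.85, -3.87 and -3.55 in DMSO. The arrays of a treatment were close together and the treatments did not overlap. Col5a3 rose by 1.83 ± 0.20 (3.55-fold, adjusted p = 0.0248, and 0.0311 in the blocked fit), and by 0.87 with normexp (adjusted p = 0.0433). Its second probe was above background on 1 array and was not tested.

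The partner chains of type V showed smaller differences. Col5a1 averaged 0.15 ± 0.31 in TSA and -0.020 ± 0.45 in DMSO (SD, n = 3 each), a difference of 0.17 ± 0.30 (adjusted p = 0.830, 95% interval -0.55 to 0.89), and its second tested probe gave 0.51 ± 0.34 (adjusted p = 0.620). For Col5a2 the averages were -3.63 ± 0.25 in TSA and -3.83 ± 0.33 in DMSO (SD, n = 3 each), with a difference of 0.21 ± 0.26 (adjusted p = 0.762, 95% interval -0.41 to 0.83). Neither passed, and the treatments overlapped for both. The log2 ratio of the Col5a3 signal to that of Col5a1 was higher in TSA by 1.64, 1.66 and 1.66 on slides 1, 2 and 3, and the ratio to Col5a2 by 1.51, 1.71 and 1.63.

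Type XI collagen is the minor fibrillar partner of type II in cartilage. Col11a1 had levels of -1.10, -1.38 and -1.20 in TSA, against -2.68, -2.25 and -2.32 in DMSO. The treatments did not overlap. Its difference was 1.19 ± 0.22 (adjusted p = 0.0704, and 0.0670 in the blocked fit), and its second tested probe gave 1.13. Col11a1 passed when the tested probes of each gene were averaged, a fit adjusted over 14527 genes and not 28160 probes. Col11a2 gave -0.26 ± 0.26 (adjusted p = 0.715).

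Col2a1, the chain of the main cartilage fibril, had levels of -1.50, -0.33 and -1.27 in TSA, against -1.32, -0.58 and -1.08 in DMSO, highest on slide 2 under both treatments. The treatments overlapped, with a difference of -0.039 ± 0.37 (adjusted p = 0.972, 95% interval -0.93 to 0.85). The remaining fibrillar genes, Col24a1 and Col27a1, gave 0.56 ± 0.53 (adjusted p = 0.696) and -0.10 ± 0.30 (adjusted p = 0.904). Col24a1 was above background on 2 TSA arrays and 1 DMSO array.

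Cartilage and notochord markers were listed because types II, IX and XI collagen mark those tissues. Of 11 measured genes 9 were tested, and 2 rose, against 1.36% of all tested genes. The list had 7 higher and 2 lower means in TSA, with differences from -0.90 to 1.85 and a median of 0.44. Acan, for the large proteoglycan of cartilage, had levels of -1.08, -1.42 and -1.54 in TSA, against -3.0, -2.89 and -3.11 in DMSO, and rose by 1.65 ± 0.21 (adjusted p = 0.0333). Snorc, for a proteoglycan of chondrocytes, rose by 1.85 ± 0.28 (adjusted p = 0.0437). Comp, for a cartilage matrix protein, gave 1.32 ± 0.26 (adjusted p = 0.0855), and Sox9, for the transcription factor that drives cartilage collagen genes, 0.21 ± 0.77 (adjusted p = 0.922). The summed linear level of the list was 9.04, 30.7 and 10 on TSA arrays 1, 2 and 3 and 3.43, 22.9 and 6.39 on DMSO arrays 1, 2 and 3, highest on slide 2 under both treatments, and Matn1 was above background on 0 arrays. The part of such cells in the collagen values was not tested.

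Pairs of chains were compared within arrays as a log2 signal ratio, in which scaling between arrays cancels. Of 8 such ratios, picked after the values were seen, 3 did not overlap between treatments. These were Col5a3 to Col5a1, Col5a3 to Col5a2 and Col11a1 to Col11a2, which differed by 1.65, 1.62 and 1.45. Each gave p = 0.1 in the two-sided exact permutation test, the smallest value that 3 against 3 arrays allow, and 0.267 after Benjamini-Hochberg adjustment over the 8 ratios. An exact sign-flip permutation test of the differences within slides, added after the values were seen, gave p = 0.25 for 5 ratios, the smallest value that 3 slides allow. These were Col5a3 to Col5a1, Col5a3 to Col5a2, Col1a2 to Col3a1, Col8a2 to Col8a1 and Col11a1 to Col11a2. Since neither test can reach 0.05 with so few arrays, a p above it does not show that a ratio was unchanged. As the pairs were picked by their values, a ratio without overlap repeats what its chains showed and is no separate support. The adjustment covered the picked ratios only. The share of ratios without overlap over other pairs of genes was not computed.

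In other pairs the treatments overlapped. The ratio of Col1a2 to Col3a1 was higher in TSA by 1.75, 1.70 and 1.63 on slides 1, 2 and 3 (exact permutation p = 0.3, adjusted 0.533). For Col8a2 to Col8a1 the values were 1.85, 1.31 and 1.72 (exact permutation p = 0.4, adjusted 0.533). For Col1a1 to Col1a2 they were 2.31, 1.03 and -0.47, with the sign on slide 3 opposite to the others (exact permutation p = 0.4, adjusted 0.533).

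**Figure D4:**
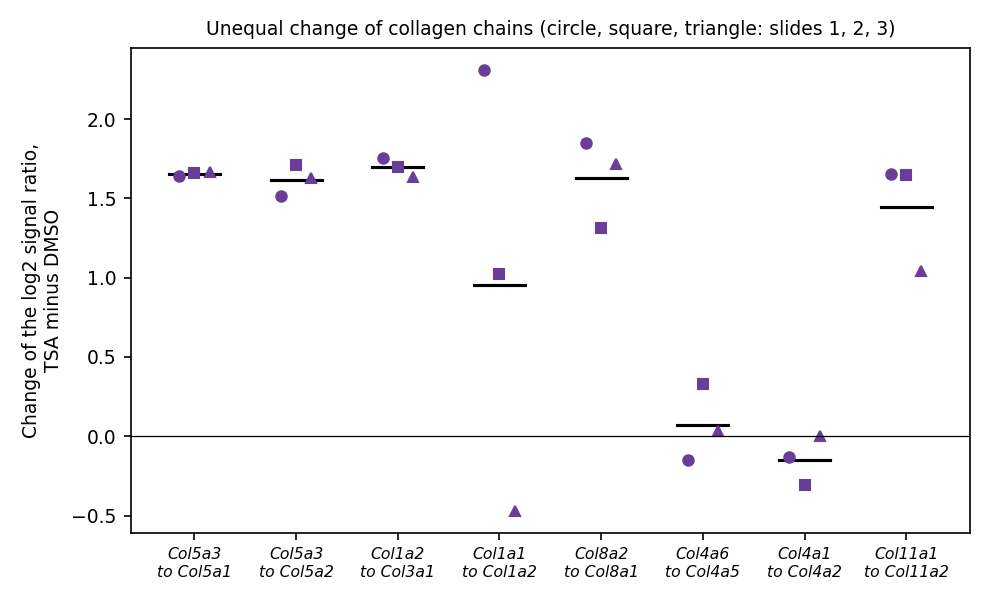
Change of the log2 signal ratio of 8 pairs of collagen chains, TSA minus DMSO. Symbols are the 3 slides and lines their mean. The ratio of Col5a3 to Col5a1 differed by 1.64 to 1.66 on every slide, while that of Col4a1 to Col4a2 lay between -0.31 and 0.0014.

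The type IV genes lie in head-to-head pairs, and Col4a1 and Col4a2 give the chains of the ubiquitous basement membrane network. Their annotated start sites lie 21 bases apart on opposite strands, within the windows printed above. Col4a1 had levels of 0.82, 1.59 and 1.08 in TSA, against 1.12, 1.69 and 1.17 in DMSO. Those of Col4a2 were -0.52, 0.93 and -0.48 in TSA, against -0.36, 0.71 and -0.39 in DMSO. For both genes the treatments overlapped, and slide 2 was highest under both. The difference was -0.16 ± 0.29 for Col4a1 (adjusted p = 0.834, 95% interval -0.85 to 0.53) and -0.013 ± 0.50 for Col4a2 (adjusted p = 0.993, 95% interval -1.20 to 1.17). The sign of Col4a2 turned when its tested probes were averaged. The log2 ratio of Col4a1 to Col4a2 differed by -0.15 (exact permutation p = 0.7, adjusted 0.8).

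In the X-linked pair, whose products occur in the basement membranes of kidney and smooth muscle among other tissues, the start sites lie 1343 bases apart. Col4a6 had levels of -1.47, -1.53 and -1.61 in TSA, against -2.76, -2.21 and -2.60 in DMSO, and those of Col4a5 were -4.11, -4.04 and -3.21 in TSA, against -5.54, -4.39 and -4.17 in DMSO. Every TSA array lay above every DMSO array for both, but neither passed. The difference was 0.99 ± 0.22 (adjusted p = 0.115, and 0.0860 in the blocked fit) for Col4a6 and 0.91 ± 0.44 (adjusted p = 0.500, and 0.160 in the blocked fit) for Col4a5. A second tested probe of Col4a6 gave 0.28 ± 0.33 (adjusted p = 0.744). The ratio of Col4a6 to Col4a5 differed by 0.073 (exact permutation p = 0.9, adjusted 0.9). Col4a4, whose chain is part of the kidney filter, gave 0.12 ± 0.47 (adjusted p = 0.926).

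Col18a1, whose heparan sulphate-bearing product yields endostatin, had levels of 5.04, 5.02 and 4.94 in TSA, against 5.43, 5.06 and 5.14 in DMSO. It was the member with every TSA array below every DMSO array, by a difference of -0.21 ± 0.20 (adjusted p = 0.696) that did not pass. A second tested probe gave -0.21 ± 0.20 (adjusted p = 0.696).

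Markers of parietal and visceral endoderm, extraembryonic tissues that secrete type IV collagen, had 14 of 15 genes tested. Of these 0 were called, against 1.36% of all tested genes called higher in TSA and 0.0551% lower. The list had 10 higher and 4 lower means in TSA, with differences from -0.17 to 1.84 and a median of 0.21. Its largest difference was that of Amn, 1.84 ± 0.50 (adjusted p = 0.179). Amn was the 1 marker that rose in the blocked fit (1.84 ± 0.18, adjusted p = 0.0318), against 3.19% of all tested genes. The summed linear level of the list was 16.1, 38.4 and 20.5 on TSA arrays 1, 2 and 3 and 18.2, 29.4 and 24.3 on DMSO arrays 1, 2 and 3, with TSA replicate 2 alone above the DMSO range. The visceral endoderm marker Ttr was above background on 0 arrays. On TSA replicate 2 and DMSO replicate 2 the median marker lay 1.20 and 0.93 above the other arrays of its treatment, and Col4a2 lay 1.42 and 1.09 above. For the cartilage and notochord list the values were 1.32 and 0.64, and for the mesenchyme list 0.51 and 0.43. Over all tested probes the median deviation was 0.17 and 0.010, and over the 34 tested collagen genes 0.17 and 0.18. The part of any of these cells in the levels was not tested.

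Type VI collagen forms beaded filaments around cells. Col6a4 had levels of -1.11, -1.64 and -1.40 in TSA, against -3.14, -3.17 and -3.04 in DMSO. The treatments did not overlap, and Col6a4 rose by 1.73 ± 0.22 (3.32-fold, adjusted p = 0.0317, and 0.0363 in the blocked fit), and by 0.95 with normexp (adjusted p = 0.0433). A second Col6a4 probe, above background on all 6 arrays, gave -0.035 ± 0.35 (adjusted p = 0.973). When both probes were averaged the difference was 0.85 and did not pass (adjusted p = 0.0803), so the call rests on 1 of 2 probes that differ.

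The other type VI chains did not pass. Col6a1 had levels of -4.71, -3.44 and -4.03 in TSA, against -5.96, -5.48 and -4.62 in DMSO, and was well above background on all 3 TSA arrays and 2 DMSO arrays. Its difference was 1.30 ± 0.45 (adjusted p = 0.312, and 0.118 in the blocked fit). Col6a2, which pairs with Col6a1 in the same molecule, was higher in TSA on all 3 slides. The difference of Col6a2 was 1.00 ± 0.48 (adjusted p = 0.497, and 0.0825 in the blocked fit). Col6a5 had levels of -4.61, -4.23 and -4.41 in TSA, against -4.56, -2.70 and -4.53 in DMSO, with DMSO replicate 2 above every other array, and gave -0.49 ± 0.52 (adjusted p = 0.723).

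Types VIII and X form short-chain networks, type VIII in vessel walls and in the membrane beneath the corneal endothelium. Col8a2 had levels of -1.62, -1.48 and -2.25 in TSA, against -3.62, -3.38 and -3.62 in DMSO. The treatments did not overlap, and Col8a2 rose by 1.76 ± 0.26 (3.38-fold, adjusted p = 0.0439, and 0.0380 in the blocked fit). The call did not hold with the authors' table, an intensity trend, median centring, quantile normalization or normexp (adjusted p = 0.0537 to 0.0753), and with normexp the difference was 0.85. Col8a1 had levels of -5.37, -4.12 and -2.13 in TSA, against -5.52, -4.70 and -1.78 in DMSO, which differed more between slides than between treatments. It gave 0.13 ± 1.16 (adjusted p = 0.971), and 0.13 ± 0.24 in the blocked fit (adjusted p = 0.777). Col10a1, the collagen of hypertrophic cartilage, was above background on 0 arrays.

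The fibril-associated genes, whose products sit on the surface of fibrils, had 6 of 8 members tested, all with a higher mean in TSA. Of these 0 passed, against 1.36% of all tested genes called higher. The median difference of the 6 genes was 0.88. Col14a1 had levels of -3.97, -4.91 and -4.95 in TSA, against -5.85, -6.00 and -6.35 in DMSO, above background on 2 TSA arrays and 1 DMSO array, and a difference of 1.45 ± 0.33 (adjusted p = 0.116, and 0.0520 in the blocked fit). Col9a3 had levels of -2.46, -2.43 and -2.68 in TSA, against -3.18, -3.62 and -3.67 in DMSO, and Col9a2 of -0.78, 0.030 and -1.05 in TSA, against -1.53, -1.38 and -1.62 in DMSO. Both encode chains of type IX collagen, which coats cartilage fibrils, and for both every TSA array lay above every DMSO array. Col9a3 gave 0.96 ± 0.22 (adjusted p = 0.125, and 0.0798 in the blocked fit). Col9a2 gave 0.91 ± 0.31 (adjusted p = 0.302, and 0.131 in the blocked fit). For Col16a1, Col22a1 and Col20a1 the differences were 0.85 ± 0.35 (adjusted p = 0.417), 0.49 ± 0.27 (adjusted p = 0.567) and 0.016 ± 0.26 (adjusted p = 0.984).

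Among the collagens that span the cell membrane, 3 of 4 genes were tested, and all were higher in TSA on every slide without passing. Col13a1, of muscle and nerve junctions, had levels of -3.06, -1.01 and -2.76 in TSA, against -5.00, -2.23 and -3.84 in DMSO. The treatments overlapped, slide 2 being highest under both, and the difference was 1.41 ± 0.82 (adjusted p = 0.578, and 0.0611 in the blocked fit). Col23a1 gave 1.18 ± 0.45 (adjusted p = 0.364, and 0.0729 in the blocked fit). Col25a1 gave 1.08 ± 0.32 (adjusted p = 0.224, and 0.130 in the blocked fit). For both, every TSA array lay above every DMSO array. A second tested probe of Col23a1 gave 0.67 ± 0.42 (adjusted p = 0.605). Col26a1 had levels of -0.39, 0.40 and -1.20 in TSA, against -2.79, -1.32 and -2.28 in DMSO, without overlap, and a difference of 1.73 ± 0.52 (adjusted p = 0.233, and 0.0611 in the blocked fit). Col7a1, the anchoring fibril of skin, gave 0.077 ± 0.23 (adjusted p = 0.903).

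Genes that make, process, bind or surround collagen were counted in 7 lists. Of 141 listed genes 114 were tested, with a median difference of 0.12. In limma 0 were called in either direction, against 1.36% of all tested genes called higher and 0.0551% lower. At an unadjusted p under 0.05, 17 (14.9%) were higher and 6 (5.26%) lower in TSA, against 12.1% and 2.78% of all tested genes. In the blocked fit 3 (2.63%) rose and 0 fell, a share below the 3.19% of all tested genes that rose. Tgfb1, for the growth factor that induces fibrillar collagen genes, had levels of -1.13, 0.89 and -0.70 in TSA, against -3.77, -2.37 and -2.71 in DMSO, and a difference of 2.64 ± 0.60 (adjusted p = 0.121, and 0.0359 in the blocked fit). Mmp9, for a gelatinase, gave 2.0 ± 0.52 (adjusted p = 0.167, and 0.0407 in the blocked fit), and Fbln2, for a matrix glycoprotein, 1.49 ± 0.43 (adjusted p = 0.215, and 0.0438 in the blocked fit). All TSA arrays lay above all DMSO arrays for these 3 genes.

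The 23 tested procollagen enzymes and chaperones had a median difference of -0.020, with 11 means higher and 12 lower in TSA. P3h3, for a prolyl hydroxylase of collagen, gave -0.70 ± 0.20 (adjusted p = 0.210), and Creb3l1, for a transcription factor of the secretory pathway, 0.61 ± 0.21 (adjusted p = 0.305). For the 12 tested procollagen proteinases and crosslinking enzymes the median was 0.45. Adamts2, which trims the amino end of fibrillar procollagens, had levels of -0.77, -1.01 and -1.28 in TSA, against -2.29, -2.26 and -2.24 in DMSO, without overlap, and gave 1.25 ± 0.21 (adjusted p = 0.0586, and 0.0551 in the blocked fit). The 5 tested collagen receptors had a median of 0.34, with 4 means higher and 1 lower in TSA. Itga11, for a fibroblast receptor of fibrillar collagen, gave 1.71 ± 0.86 (adjusted p = 0.517), and Itgb1, for the common beta chain of collagen-binding integrins, gave -0.51 ± 0.23 (adjusted p = 0.465), the lower mean of the list.

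The 21 tested basement membrane partners had a median of 0.14, and Lama4, for a laminin chain, gave 1.38 ± 0.26 (adjusted p = 0.0759). Collagen-degrading proteinases and their inhibitors had 10 tested members and a median of -0.029. For the 23 tested interstitial proteins outside the collagens the median was 0.14. Dcn, for a proteoglycan that binds collagen fibrils, had levels of -1.49, -1.96 and -1.62 in TSA, against -0.45, -0.99 and -0.89 in DMSO, with every TSA array below every DMSO array, and gave -0.91 ± 0.24 (adjusted p = 0.177). The 20 tested TGF-beta signals and transcription factors of collagen genes had a median of -0.12, and Nfic gave 1.00 ± 0.20 (adjusted p = 0.0840).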

How the data were processed

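Each array came as an Agilent Feature Extraction file (version 10.7 per the submitters' processing notes). Per the file headers, its deposited intensity values include a processed signal from which the software had removed background and spatial trend, with no scaling across arrays. The authors also deposited a series table of log2 values, whose normalization and centring are not stated. It correlated at 0.982 to 0.992 with log2 processed signals, so it runs in the same direction, and its column medians over all probes were 6.31 to 6.34. Here, control spots and outlier spots (57 to 84 an array) were removed, log2 was taken and the array's 75th percentile subtracted, and repeated spots were averaged. Of 41174 probes, 28160 (68.4%) were tested, and 27479 had 1 gene name, 0 several and 13695 none. The reference has another build than the array design, so no probe positions are given.

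Treatment was the only term in limma 3.58.1 (R 4.3.3; lmFit and eBayes, two-sided), with Benjamini-Hochberg adjustment over tested probes. Replicate numbers are slide numbers. Deviations from group means correlated at 0.484, 0.614 and 0.585 within slides and at -0.568 to 0.0916 across them, so the numbers pair the samples. The code was tested on simulated data. The p-values of the main fit are set against the spread among samples of independent experiments. Those of the blocked fit are set against what remains after differences between slides are removed. The number of arrays limits precision. Members, classes and lists were chosen with earlier results of these data known. The naming rule took members that passed, 10 well-known members, the 5 highest and 5 lowest differences and list members with small adjusted p, and the other tested members are described too. Sox9 and Pdgfra were picked after their values were seen. Alternatives were normexp (offset 50, on median spot signals, since mean signals are not in the files used here), quantile normalization, median centring, kept outliers, 2 other filters, an intensity trend, the slide block, the authors' table, single arrays left out and averaged probes. Leaving out slide 2 and the sign-flip test of chain ratios were added after seeing the data. Scripts used Python 3.11.15, numpy 2.4.6, pandas 2.3.3, scipy 1.17.1 and matplotlib 3.10.9.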

Additional observations from a re-analysis of the deposited data

How the results depend on the processing

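With the slide as a replicate block 658 probes passed, against 269 without it, and 4 collagen genes, against 3. The block also took the changed members of the pathway lists to 3, against 0. Probe calls numbered 140 with normexp, 156 with quantile normalization, 144 with median centring, 149 with the values of the authors, 58 with no filter and 0 with both arrays of slide 2 left out. Collagen calls numbered 0 with no filter, where more probes were tested, and 0 without slide 2, where fewer arrays were. Leaving out single arrays gave 0 to 629 probe calls and 0 to 5 collagen calls. Where 0 probes passed after 1 array was left out, 2019 to 3327 had an unadjusted p under 0.05. The median of the other class was 0.33 with normexp, and the cause was not tested. Single arrays left out gave medians of 0.12 to 0.61 for fibrillar genes and -0.30 to 0.36 for basement membrane genes. For Col5a3, Col6a4 and Col8a2 the adjusted p was 0.0525, 0.0525 and 0.0705 without slide 2, and 0.0574, 0.0667 and 0.0851 with no filter.

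Differences that turned sign belonged to genes that did not pass. Col3a1 gave -0.040 with normexp, -0.037 with quantile normalization, -0.0068 with median centring, -0.091 with the values of the authors and -0.038 without slide 2. Col4a2 gave 0.054 when its probes were averaged. Without slide 2, Col6a5 gave 0.034, Col11a2 0.0020 and Col27a1 0.24. Single arrays left out gave -0.39 to 0.20 for Col2a1, -0.63 to 1.05 for Col3a1, -0.38 to 0.023 for Col4a1, -0.49 to 0.35 for Col4a2, -0.80 to 0.13 for Col6a5 and -0.33 to 0.18 for Col27a1. TSA replicate 2 had 61.1% of spots well above background, against 65.6% to 72.3% on the other arrays, which limits dim members such as Col14a1 and Col24a1.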
